A study of Homo sapiens with 6 samples.

Results

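Nuclear-encoded subunits of the respiratory chain and of the ATP synthase were examined in RNA-seq of SK-OV3, an established line of human ovarian cancer cells, after siRNA to the long noncoding RNA PVT1. Members were the rows of the raw count table whose symbol begins with NDUFA, NDUFB, NDUFC, NDUFS or NDUFV and a digit, with UQCR, with ATP5 or with COX and a digit from 4 to 8, together with SDHA, SDHB, SDHC, SDHD and CYC1. The pattern matched 243 symbols, and 150 that end in P and digits, the form used for pseudogenes, were dropped. This left 93 of the 59653 symbols in the table. They comprise 88 protein-coding subunit symbols, 3 non-coding RNAs (NDUFA6-DT, NDUFB2-AS1, NDUFV2-AS1) and 2 readthrough transcripts (NDUFC2-KCTD14, ATP5MF-PTCD1). By complex there were 36 protein symbols for complex I, 4 for complex II, 10 for complex III, 19 for complex IV and 19 for the ATP synthase, with NDUFA4 and NDUFA4L2 counted in complex IV, where NDUFA4 is now placed. The complex I acyl carrier protein NDUFAB1 is not matched by the pattern and was counted with the electron carriers below.

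Both groups were SK-OV3 cells, which the paper describes as lacking p53 expression, and the sample titles name no engineered allele and no agent besides the siRNA. The cells were transfected with 50 nM siRNA by Lipofectamine RNAiMAX and collected 48 h later. The siPVT1 group (3 libraries) received a pool of siRNAs to PVT1 and the siControl group (3 libraries) a non-targeting pool, so that lowering of PVT1 and any other effect of this pool cannot be told apart. The labels number the replicates but do not say that they were separate cultures, so p-values measure the spread between these libraries, which may be technical. Polyadenylated RNA was sequenced and the authors deposited estimated counts per gene symbol.

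The respiratory chain passes electrons from NADH (through complex I) and from succinate (through complex II) to coenzyme Q, then through complex III and cytochrome c to complex IV, which reduces oxygen to water. Complexes I, III and IV pump protons across the inner mitochondrial membrane, and the ATP synthase, also called complex V, uses the gradient to make ATP. Most subunits are encoded in the nucleus, imported and joined, with the help of assembly factors, to a small set of subunits made inside the mitochondrion. NDUFA4L2, a paralog of NDUFA4, and COX4I2, a paralog of COX4I1, are known as isoforms that hypoxia or HIF factors can induce.

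Libraries held between 28383171 and 35059576 counts in total, and a count of 0 allows a CPM of up to 0.0856 to 0.106, depending on the library. Normalized PVT1 counts were 3298, 4090.5 and 3377 in siControl and 2350, 2111 and 2062.5 in siPVT1 (log2 fold change -0.72 ± 0.097 SE, edgeR adjusted p = 0.000342). The 8 markers of ovarian carcinoma epithelium summed to 20278 to 22625 normalized counts in siControl and 28165 to 31596 in siPVT1, with 5 called higher and 1 lower. KRT8, KRT18, PAX8 and ERBB2 had 896 or more in every library, EPCAM had 41.3 to 127, MUC16 17.9 to 635, KRT19 242 to 277 in siControl and 815 to 1712 in siPVT1, and MSLN 24.8 to 39.4 and 203 to 318. Of the leukocyte markers CD3E was at 0 and PTPRC at no more than 2.02, while CD68, a macrophage marker, had 548 to 891 and made up nearly all of the summed level of that list (549.6 to 606.6 in siControl, 580.7 to 890.9 in siPVT1). All 3 endothelial markers on the list (CDH5, PECAM1, VWF) were higher in siPVT1, with a summed level of 2047 to 2072 in siControl and 8608 to 10883 in siPVT1, as was 1 of 3 fibroblast markers (COL1A1, with LUM at 1.88 to 24.2 and DCN at no more than 1.11, and a summed level of 126 to 132 against 501 to 522), and the part of these markers in the results below was not tested. In bulk RNA, fewer cells of a type and less RNA per cell cannot be told apart. Normalized counts are counts scaled by TMM to a common library size, fold changes are siPVT1 over siControl with n = 3 per group, and a gene was called higher or lower at an adjusted p under 0.05 in edgeR's quasi-likelihood test across 19008 genes.

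Subunit genes moved little and in both directions. Of the 93 symbols, 87 passed the filter on low counts, and 31 were called higher, 16 lower and 40 in neither direction, where 29.5% of all genes tested were called higher and 28.4% lower. The median log2 fold change was 0.11 over the tested members and 0.0014 over all genes. Among the 82 protein symbols tested, 30 were higher and 14 lower, and 77 had a log2 fold change between -0.5 and 0.5. The protein symbols ran from -0.85 (NDUFA4L2) to 0.71 (UQCRHL), and 0 of 82 passed both thresholds, an adjusted p under 0.05 and at least a 2-fold change, by edgeR or by DESeq2 (48 had an unadjusted p under 0.05 by edgeR), while 21.5% of all genes did in either direction. Without siPVT1 replicate 2, 1 protein symbol, NDUFA4L2, passed both. The libraries of the groups did not overlap for 54 of the 87 tested members, beside 65.6% of all genes.

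The balance between directions depended on the scaling. With scaling by the total count, which moved the median of all genes to -0.15, the members divided into 15 higher and 26 lower with a median of -0.040, so that the share of higher genes among those called went from 66.0% to 36.6%, and over all genes from 51.0% to 39.4%. Without siControl replicate 2 the counts were 20 higher and 17 lower with a median of 0.048, and without siPVT1 replicate 3 the median was 0.035. In 12 alternatives of test, scaling, filter, block and left-out library, 15 of the 31 higher and 13 of the 16 lower members kept their call in each. The higher ones were NDUFB4, NDUFB11, NDUFC2-KCTD14, SDHA, UQCR11, UQCRHL, COX4I1, COX5B, COX6B1, COX6C, COX7A2, COX7C, COX8A, ATP5MC2 and ATP5F1E. The lower ones were NDUFA5, NDUFA8, NDUFA9, NDUFB5, NDUFC2, NDUFS3, NDUFV3, NDUFB2-AS1, SDHD, CYC1, UQCRFS1, ATP5PB and ATP5MF-PTCD1.

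**Figure D1:**
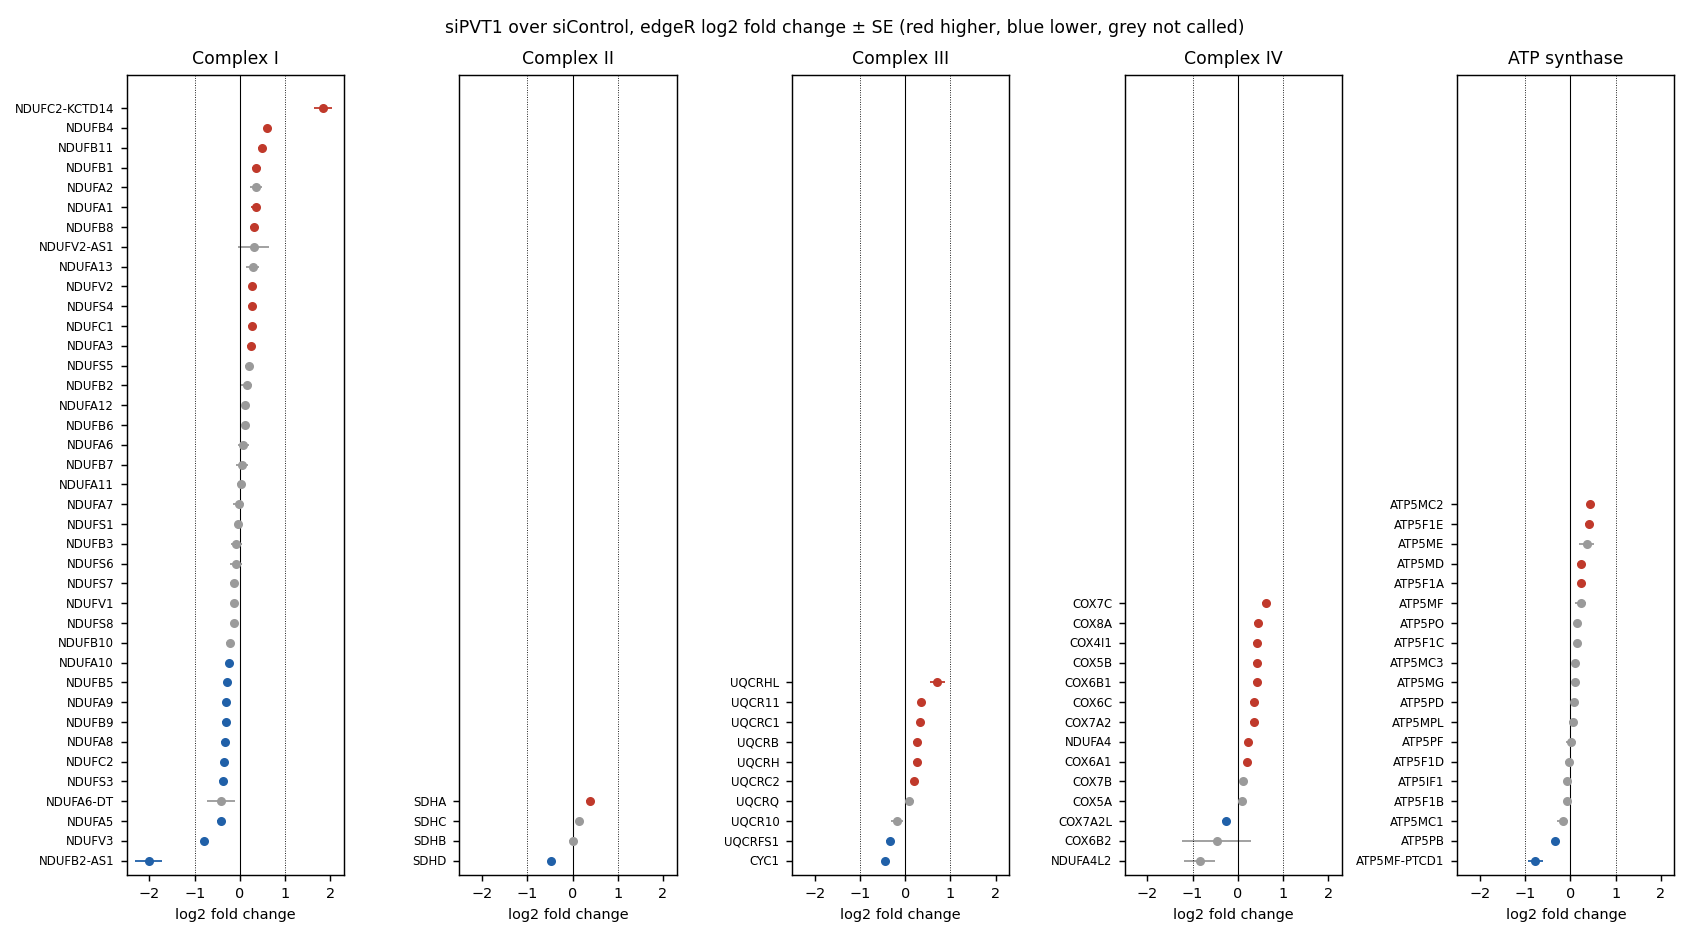
Log2 fold change of the tested members that are reported here (siPVT1 over siControl, horizontal axis) by complex, with bars for ± 1 SE from edgeR and dotted lines at a 2-fold change; red is higher, blue lower and grey not called at an adjusted p under 0.05 with TMM scaling. In complex IV, 9 of 14 points are red and 1 is blue, and complex I shows genes of both colours. Over all genes tested 29.5% were higher and 28.4% lower. With scaling by the total count complex IV has 7 higher and 2 lower and the complex I proteins 2 higher and 14 lower.

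Complex I, the NADH dehydrogenase, divided almost evenly, as did all genes tested (29.5% higher, 28.4% lower). Of its 36 protein genes 10 were higher, 9 lower and 17 not called, with a median log2 fold change of 0.036. NDUFV3, an accessory subunit of the arm that oxidises NADH (chr21:42879644-42913304, GRCh38), had normalized counts of 1493, 1424 and 1565 in siControl and 816, 838 and 937 in siPVT1. This was the lowest value of any called protein member (log2 fold change -0.79 ± 0.078 SE, edgeR adjusted p = 6.42e-05), and the groups were far apart. NDUFA5, an accessory subunit of the module that binds quinone, had 860, 733 and 825 counts in siControl and 558, 617 and 622 in siPVT1 (-0.43 ± 0.088 SE, edgeR adjusted p = 0.00341). NDUFS3, a core subunit of the same module, had 1186, 1140 and 1224 against 854, 849 and 1013 (-0.39 ± 0.086 SE, edgeR adjusted p = 0.00525). In both genes every siPVT1 library lay below every siControl library.

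The accessory subunits of the membrane arm were on both sides. NDUFB4 (chr3:120596328-120602507) had 1779, 1530.5 and 1786 normalized counts in siControl and 2528, 2540.4 and 2684.5 in siPVT1 (log2 fold change 0.61 ± 0.076 SE, edgeR adjusted p = 0.000245). NDUFB11 had 588, 546 and 544 against 781, 742 and 813 (0.48 ± 0.075 SE, edgeR adjusted p = 0.000827), and NDUFB1 had 648, 561 and 701 against 786, 799 and 865 (0.36 ± 0.097 SE, edgeR adjusted p = 0.0125). The groups did not overlap for any of these 3 genes. In the same arm NDUFB5 (-0.29), NDUFB9 (-0.31), NDUFC2 (-0.35) and NDUFA8 (-0.33) were lower. Among the nuclear-encoded core subunits, which carry the flavin and the iron-sulphur clusters or bind quinone, NDUFV2 (0.27) was higher, NDUFS3 was lower, and NDUFS1, NDUFS7, NDUFS8 and NDUFV1 were not called, with values from -0.13 to -0.03.

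Within complex I the counts moved with the settings. They were 2 higher and 14 lower of 36 with scaling by the total count, 6 and 10 without siControl replicate 2, and 6 and 9 without siPVT1 replicate 2.

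Complex II, the succinate dehydrogenase that also works in the TCA cycle, had 1 of its 4 genes called in each direction. This is near the shares over all genes tested (29.5% higher, 28.4% lower). SDHA, the flavoprotein that oxidises succinate, had 2717, 2429 and 2700.0 normalized counts in siControl and 3772, 3400.2 and 3066 in siPVT1 (log2 fold change 0.38 ± 0.088 SE, edgeR adjusted p = 0.00582). SDHD, a membrane anchor, had 2769, 2564 and 2904 against 1921, 1959 and 2009 (-0.48 ± 0.066 SE, edgeR adjusted p = 0.000368). The groups were separate for both, in opposite directions. The iron-sulphur subunit SDHB (0.017 ± 0.085 SE) and the other anchor, SDHC (0.13 ± 0.060 SE), were not called. The counts were 1 higher and 1 lower with scaling by the total count and without siControl replicate 2 as well.

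Complex III, which carries electrons from coenzyme Q to cytochrome c, had 6 genes higher, 2 lower and 2 not called, with a median of 0.23. Over all genes tested 29.5% were higher and 28.4% lower. The 2 lower complex III genes encode the subunits of the set that hold redox centres. A link between such centres and the direction of change was not tested. CYC1, cytochrome c1, had 3200, 2823 and 3194 normalized counts in siControl and 2318.5, 2217 and 2275 in siPVT1 (log2 fold change -0.44 ± 0.068 SE, edgeR adjusted p = 0.000788), and UQCRFS1, the Rieske iron-sulphur protein, had 2206.5, 1925.5 and 2248 against 1530.1, 1680.5 and 1819 (-0.34 ± 0.089 SE, edgeR adjusted p = 0.0105). Neither gene had overlapping groups. The 6 higher genes encode subunits without a redox centre, among them UQCR11 (0.35 ± 0.080 SE, edgeR adjusted p = 0.00541), the core protein UQCRC1 (0.33 ± 0.078 SE, edgeR adjusted p = 0.00654) and the hinge protein UQCRH (0.25). UQCRHL, an intronless and nearly identical copy of UQCRH, had 482, 313 and 406 against 606, 612 and 750 (0.71 ± 0.16 SE, edgeR adjusted p = 0.00519), and its counts are uncertain because reads of the 2 genes can be shared out between them. The sum over UQCRH and UQCRHL was 2995 ± 336 (SD, n = 3) in siControl and 3747 ± 264 in siPVT1, without overlap. The counts for complex III were 2 higher and 3 lower with scaling by the total count, and 3 higher and 2 lower without siControl replicate 2 or without siControl replicate 3.

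Complex IV, cytochrome c oxidase, had the highest median of the 5 complexes at 0.29. Of 19 symbols 14 were tested, and 9 were higher, 1 lower and 4 not called. Beside this, 29.5% of all genes tested were higher and 28.4% lower. COX7C (chr5:86617928-86620962), a small subunit that spans the membrane, had 2622, 2192 and 2612 normalized counts in siControl and 3908, 3778 and 3767 in siPVT1 (log2 fold change 0.62 ± 0.079 SE, edgeR adjusted p = 0.000258). COX8A, also small and membrane-spanning, had 1136, 955 and 1122 against 1447, 1442 and 1486.5 (0.45 ± 0.081 SE, edgeR adjusted p = 0.00176). COX4I1, the ubiquitous isoform of subunit 4, had 4840.5, 3794.5 and 4722 against 6064, 5960.3 and 5933 (0.43 ± 0.092 SE, edgeR adjusted p = 0.00438). For each of these the siPVT1 libraries lay close together and above every siControl library. COX5B (0.42), COX6B1 (0.42), COX6C (0.36), COX7A2 (0.36), NDUFA4 (0.22) and COX6A1 (0.20) were also higher, and pseudogene symbols held 6.67% of the counts assigned to COX6A1 and its pseudogenes together. COX7A2L, which joins complexes III and IV in supercomplexes, was the lower gene, with 3464, 2874 and 3457 against 2726, 2752 and 2716 (-0.26 ± 0.081 SE, edgeR adjusted p = 0.0247). COX5A (0.08) and COX7B (0.13) were not called.

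The counts for complex IV were 7 higher and 2 lower with scaling by the total count, with a median of 0.14 where that of all genes was -0.15, and 7 higher and 1 lower without siControl replicate 2. COX7A2L was no longer called lower without siControl replicate 1 (8 higher, 0 lower) or without siControl replicate 3 (7 higher, 0 lower), and without siPVT1 replicate 2 the counts were 8 higher and 2 lower. Per kilobase of transcript, the normalized counts of all complex IV protein genes summed to 36742, 30771 and 36420.0 in siControl and to 44232, 43948 and 45278 in siPVT1. The ratio of the group means was 1.28 for complex IV, 1.06 for complex I, 0.986 for complex II, 1.12 for complex III and 1.07 for the ATP synthase. With this TMM scaling, only for complexes III and IV did the sums of the groups not overlap. The TMM factors were 1.03 to 1.09 in siControl and 0.945 to 0.958 in siPVT1, which raises siPVT1 relative to siControl. With scaling by the total count every ratio would be lower, and overlap of the sums is not given for that scaling.

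The ATP synthase had the smallest share of genes called among the complexes. Of 18 protein genes tested, 4 were higher, 1 lower and 13 not called, with a median of 0.10. Over all genes tested 29.5% were higher and 28.4% lower. ATP5MC2, 1 of 3 genes for the proton-carrying c subunit, had 2381, 2200.3 and 2357 normalized counts in siControl and 3365, 3068 and 3011.5 in siPVT1 (log2 fold change 0.44 ± 0.067 SE, edgeR adjusted p = 0.000678). ATP5F1E, the epsilon subunit, had 2870.2, 2403 and 2914 against 3520.1, 3505 and 3821 (0.41 ± 0.085 SE, edgeR adjusted p = 0.00384). ATP5PB, subunit b of the peripheral stalk, had 5696, 5059 and 5598 against 4021, 4322 and 4672 (-0.33 ± 0.076 SE, edgeR adjusted p = 0.00622). The groups were separate for all 3, with ATP5PB the only one lower. ATP5F1A, the alpha subunit (0.24), and ATP5MD, a small membrane subunit (0.24), were also higher, and the catalytic beta subunit ATP5F1B (-0.077 ± 0.060 SE) and the inhibitor of ATP hydrolysis ATP5IF1 (-0.065 ± 0.074 SE) were not called. The counts were 2 higher and 4 lower with scaling by the total count, 2 and 1 without siControl replicate 2, and 4 and 3 without siPVT1 replicate 3.

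**Figure D2:**
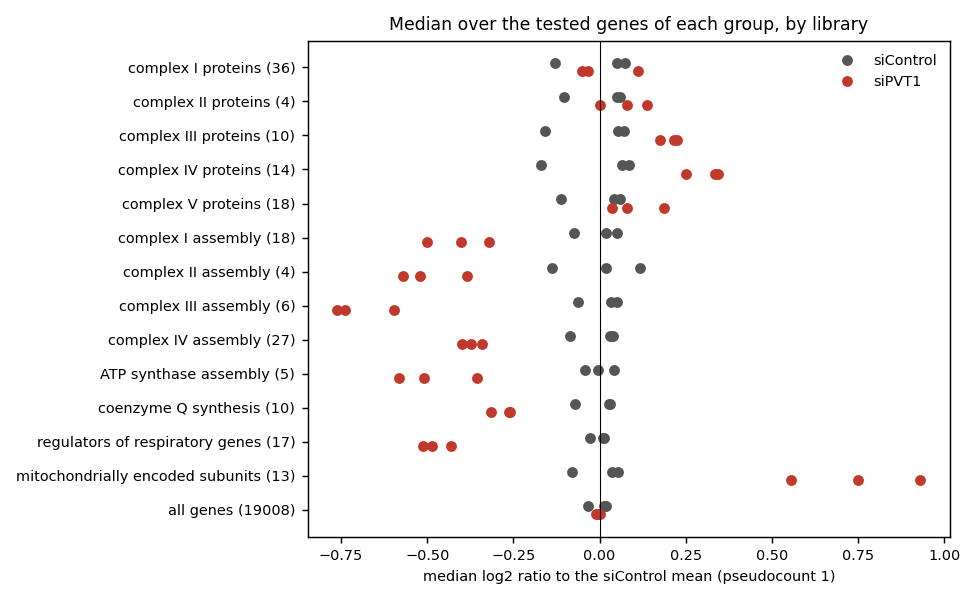
Median over the tested genes of each group of the log2 ratio of a library's normalized count to the siControl mean (horizontal axis, pseudocount of 1), with 1 point per library, grey for siControl and red for siPVT1, and the number of genes in brackets. The siPVT1 points lie between 0.25 and 0.34 for complex IV and between -0.76 and -0.60 for complex III assembly factors, and siControl replicate 2 is the lowest siControl point for each complex.

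In siControl replicate 2 the subunit genes sat lower than in the other siControl libraries, with medians of -0.13 for complex I proteins, -0.16 for complex III and -0.17 for complex IV on the log2 ratio scale, where the median over all genes was -0.033. The counts without this library are given above for the complexes.

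NDUFA4L2 (chr12:57234903-57240715, minus strand) was expressed at a low level. Its raw counts were 23, 23 and 17 in siControl and 10, 14 and 8 in siPVT1, or 21.9, 23.2 and 15.7 against 11.1, 15.3 and 7.52 after normalization. Every siPVT1 library lay below every siControl library, but siPVT1 replicate 2 and siControl replicate 3 were nearly level. The log2 fold change of -0.85 ± 0.34 SE did not pass the threshold (edgeR adjusted p = 0.0649). It ranged from -1.14 to -0.62 over the alternatives, with an adjusted p between 0.0379 and 0.158, and it passed in 2 of them, with scaling by the total count and without siPVT1 replicate 2 (-1.14, adjusted p = 0.0407). NDUFA4 itself had 2425.5, 2115.5 and 2320.4 normalized counts in siControl and 2664, 2553.5 and 2773 in siPVT1, with separate groups (0.22 ± 0.070 SE, edgeR adjusted p = 0.0269). Per kilobase, NDUFA4L2 made up 1.89% ± 0.44 (SD, n = 3) of the sum of the pair in siControl and 0.917% ± 0.35 in siPVT1. HIF1A was called higher (0.26 ± 0.060 SE, edgeR adjusted p = 0.006) and EPAS1, which encodes HIF2 alpha, lower (-0.35 ± 0.12 SE, edgeR adjusted p = 0.0291).

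The reference promoter of NDUFA4L2 (RefSeq, GRCh38.p14, chr12:57240713-57241012, minus strand, 5′ to 3′, 250 bases before to 50 after the start) is shown because the gene was singled out as a hypoxia-induced isoform, with the letters GCGTG, a core of hypoxia response elements, in capitals.
NDUFA4L2: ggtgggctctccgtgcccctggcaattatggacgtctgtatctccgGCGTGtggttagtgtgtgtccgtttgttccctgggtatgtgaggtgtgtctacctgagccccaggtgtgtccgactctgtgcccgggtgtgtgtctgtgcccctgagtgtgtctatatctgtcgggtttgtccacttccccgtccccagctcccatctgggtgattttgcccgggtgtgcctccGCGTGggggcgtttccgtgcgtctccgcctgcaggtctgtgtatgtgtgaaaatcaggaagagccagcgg
GCGTG on either strand was found in 47.9% of the 71 member promoters at hand and in 36.5% of all 35116 promoters, and ACGTG in 23.9% and 21.4%, so that the letters alone are common. A match is a description of the sequence and not a site.

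COX4I2 (chr20:31637912-31645006) had 0 counts in all 6 libraries, which allows up to 3 counts in a library, beside 3794.5 to 6064 normalized counts of COX4I1. No fold change could be computed. Other tissue-restricted isoforms were also at or near 0, and COX6A2 and COX7A1 (muscle isoforms) and COX7B2 had 0 counts in every library. COX8C had 3, 0 and 2 raw counts in siControl and 0, 0 and 1 in siPVT1, and ATP5MGL had 1, 3 and 4 against 0, 3 and 1. These 6 genes were not tested. COX6B2, the testis isoform of COX6B1, had 13, 4 and 6 raw counts against 11, 2 and 2, with overlapping groups and no call (-0.47 ± 0.76 SE).

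C15orf48, another paralog of NDUFA4 that can take its place in complex IV in inflamed or stressed cells, is no member of the set by name. It had 24.8, 25.3 and 18.5 normalized counts in siControl and 134.7, 144.2 and 102.4 in siPVT1, with no overlap (2.47 ± 0.21 SE, edgeR adjusted p = 3.23e-05). Per kilobase its share of the sum with NDUFA4 was 3.05% ± 0.59 (SD, n = 3) in siControl and 13.04% ± 2.4 in siPVT1.

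**Figure D3:**
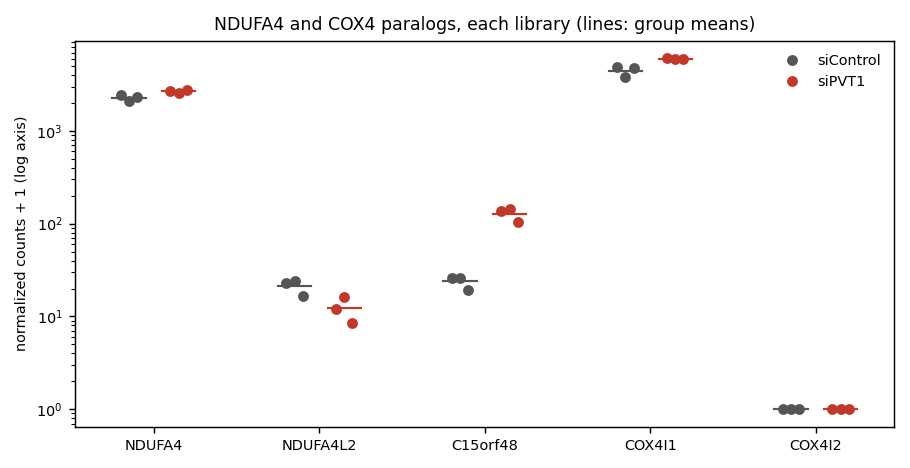
Normalized counts plus 1 (vertical log axis) of NDUFA4, its paralogs NDUFA4L2 and C15orf48, COX4I1 and its paralog COX4I2, with 1 point per library, grey for siControl and red for siPVT1, and a line at each group mean. COX4I2 is at 0 counts in all 6 libraries, C15orf48 is higher in each siPVT1 library, and the NDUFA4L2 groups are close together at 7.52 to 23.2 counts.

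Shares within other isoform groups, per kilobase and given without a test, moved in the c subunit genes of the ATP synthase, which encode the same mature protein with different import signals. ATP5MC1 had 33.6%, 33.6% and 34.6% of their sum in siControl and 22.9%, 25.5% and 29.9% in siPVT1. ATP5MC2 had 49.4%, 49.9% and 48.3% against 62.0%, 58.7% and 53.8%. The groups did not overlap for either gene, and siPVT1 replicate 3 lay nearest to siControl in both. ATP5MC3 went from 16.9% ± 0.27 (SD, n = 3) to 15.7% ± 0.62, and UQCRHL from 22.9% ± 2.2 to 29.2% ± 1.3 of the sum with UQCRH.

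Levels compared per kilobase of transcript differed widely within each complex. In siControl the highest tested protein gene was NDUFB9 in complex I (5772 normalized counts per kilobase), SDHD in complex II (2051), UQCRH in complex III (4832), COX4I1 in complex IV (5835) and ATP5F1B in the ATP synthase (8857). The lowest were NDUFA5 (147), SDHA (971), UQCR11 (599), COX6B2 (4.67) and ATP5F1D, the delta subunit (567). Lengths are those of the MANE Select transcripts, whose untranslated ends can be longer than those used in these cells. In siPVT1 the highest gene of complexes I to III was NDUFS5 (4781), SDHC (2046) and UQCRH (5756), and COX4I1 (7845) and ATP5F1B (8400) were again the highest in the other two.

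The 2 members that also passed the 2-fold threshold were a readthrough and an antisense RNA. NDUFC2-KCTD14, a readthrough of NDUFC2 into the neighbouring KCTD14 on chromosome 11, had 101.9, 90.9 and 83.1 normalized counts in siControl and 269, 290 and 424 in siPVT1 (log2 fold change 1.84 ± 0.19 SE, edgeR adjusted p = 8.84e-05). It shares exons with both genes, of which NDUFC2 was lower (-0.35 ± 0.082 SE, edgeR adjusted p = 0.00677) and KCTD14, a potassium channel domain gene, higher (0.87 ± 0.089 SE, edgeR adjusted p = 7.84e-05), so its counts are uncertain. The sum of NDUFC2 and the readthrough was 1966 ± 163 (SD, n = 3) in siControl and 1801 ± 124 in siPVT1, with overlap between the groups. NDUFB2-AS1, an RNA antisense to NDUFB2, had 20.0, 23.2 and 21.2 against 4.45, 5.46 and 5.64 (-2.02 ± 0.30 SE, edgeR adjusted p = 0.000616), all siPVT1 libraries being lower, while NDUFB2 was not called (0.15 ± 0.13 SE). The strand setting of the counting is not given in the sources used here, so reads of this pair may not be told apart. ATP5MF-PTCD1, a readthrough of ATP5MF into PTCD1, had 139, 143 and 182 against 75.7, 86.3 and 109 (-0.77 ± 0.18 SE, edgeR adjusted p = 0.00569). NDUFA6-DT and NDUFV2-AS1 were not called.

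Higher and lower subunit genes differed in transcript length. Among 80 protein members with a mean of at least 100 normalized counts, the log2 fold change against the logarithm of transcript length had r = -0.42 and rho = -0.39 across genes, where over 16175 tested genes with a length the values were 0.020 and 0.014. These are descriptions across genes that share the same 6 libraries, and genes are not independent replicates. Of 36 members under 700 nucleotides 17 were higher and 1 was lower (median 0.25), of 27 members from 700 to under 2000 nucleotides 8 were higher and 4 lower (median 0.089), and of 17 with 2000 nucleotides or more 5 were higher and 9 lower (median -0.24). All tested genes under 700 nucleotides had a median of 0.15, with 241 higher and 122 lower of 905. Those from 700 to under 2000 nucleotides had a median of -0.0035, with 1153 higher and 1066 lower of 4050. Those of 2000 nucleotides or more had a median of -0.0077, with 3764 higher and 3703 lower of 11220. In siControl replicate 2 the short members also sat lowest against the other siControl libraries (median -0.25 under 700 nucleotides, -0.17 in each longer class). Its log2 ratio to those libraries against length had r = 0.385 and rho = 0.412 over the same 80 members, with no difference in siRNA. Over all tested genes its medians were -0.13, -0.11 and -0.044 from the shortest to the longest class. The part of this library in the length pattern was not tested. The length classes were chosen after the values were seen.

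**Figure D4:**
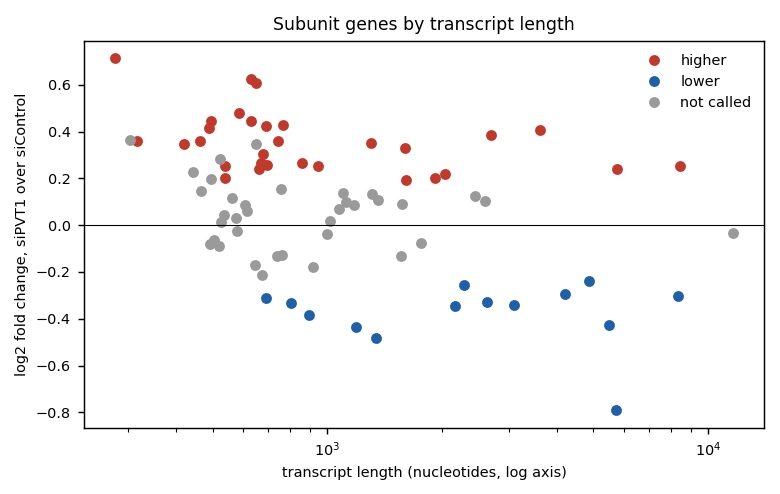
Log2 fold change (vertical axis, siPVT1 over siControl, TMM scaling) against MANE Select transcript length in nucleotides (horizontal log axis) for 80 protein members with a mean of at least 100 normalized counts; red is higher, blue lower and grey not called. Under 700 nucleotides 17 points are red and 1 is blue, and at 2000 nucleotides or more 5 are red and 9 blue. Among all tested genes (not drawn), 241 of 905 were higher and 122 lower in the shorter class. In the longer class 3764 of 11220 were higher and 3703 lower.

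With TMM scaling the factors that assemble the complexes were mostly lower, unlike the subunits. With scaling by the total count, more members were called lower than higher, as given above. Over 5 assembly lists with 60 genes, 38 were lower and 7 higher with TMM scaling, and the median was -0.46. Of all genes tested 28.4% were lower and 29.5% higher, and these shares also stand beside the counts for each list below. For complex I, 14 of 18 factors were lower and 2 higher (median -0.40), though without siControl replicate 1 the count was 9 lower. NDUFAF4 had 992, 912 and 989 normalized counts in siControl and 249, 285 and 412 in siPVT1 (log2 fold change -1.61 ± 0.17 SE, edgeR adjusted p = 8.75e-05), and NDUFAF6, another early assembly factor, fell as well (-1.07 ± 0.086 SE, edgeR adjusted p = 2.33e-05). COA1 (0.69) and NDUFAF3 (0.49) were the higher ones. For complex II, SDHAF1, SDHAF2 and SDHAF3 (-0.74) were lower, and SDHAF4, which helps to insert the flavoprotein SDHA, was higher (1.12 ± 0.14 SE, edgeR adjusted p = 0.000231).

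For complex III, 5 of 6 factors were lower and UQCC2 was not called (0.011 ± 0.10 SE), with a median of -0.68. BCS1L, the AAA protein that inserts the Rieske protein UQCRFS1, had 1038, 977 and 994 normalized counts in siControl and 311, 307 and 388 in siPVT1 (log2 fold change -1.58 ± 0.10 SE, edgeR adjusted p = 9.12e-06). LYRM7, the chaperone of UQCRFS1 before its insertion, had 1029, 986 and 1107.5 against 350, 452 and 415 (-1.36 ± 0.11 SE, edgeR adjusted p = 1.96e-05). UQCRFS1 itself was also lower, by the smaller amount given above. For complex IV, 14 of 27 factors were lower and 4 higher (median -0.33), led by COA7 (-1.38 ± 0.20 SE, edgeR adjusted p = 0.000507) and TACO1, which promotes translation of the mitochondrial COX1 message (-1.10 ± 0.10 SE, edgeR adjusted p = 4.94e-05), and the small copper chaperone COX17 (0.50) and PET100 (0.51) were higher. For the ATP synthase 2 of 5 were lower, TMEM70 (-1.11 ± 0.14 SE, edgeR adjusted p = 0.000203) and ATPAF1 (-0.63), and 4 of 5 were lower with scaling by the total count.

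**Figure D5:**
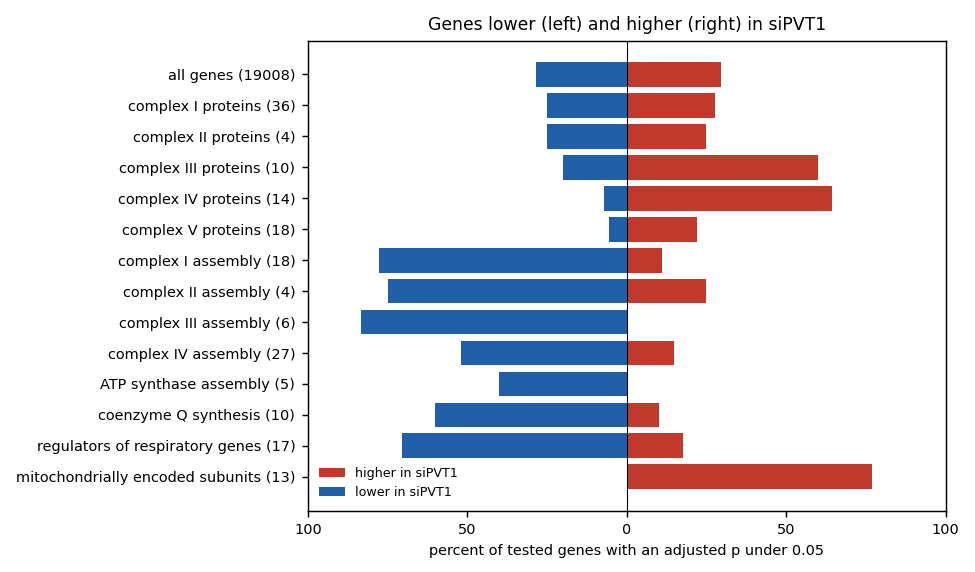
Percent of the tested genes of each group with an edgeR adjusted p under 0.05, lower in siPVT1 to the left in blue and higher to the right in red, with the number of genes in brackets. Among complex IV proteins 64.3% were higher and 7.14% lower, among complex III assembly factors 83.3% were lower, and among all genes 29.5% were higher and 28.4% lower, with TMM scaling.

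Among 16 genes for electron carriers and other subunits 3 were higher and 7 lower, where 29.5% of all genes tested were higher and 28.4% lower. CYCS, cytochrome c itself, had 8194, 6972 and 8386 normalized counts in siControl and 2725, 3806 and 5101 in siPVT1 (log2 fold change -1.02 ± 0.20 SE, edgeR adjusted p = 0.00262), with a wide spread but no overlap. Of 10 genes for coenzyme Q synthesis 6 were lower, among them PDSS1 (-1.12 ± 0.25 SE, edgeR adjusted p = 0.00508) and COQ3 (-1.04 ± 0.11 SE, edgeR adjusted p = 9.49e-05), and COQ5 was higher (0.55). NDUFAB1 was not called (-0.13 ± 0.12 SE).

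The 13 subunits encoded in mitochondrial DNA took the opposite direction to the assembly factors, with 10 higher and 3 not called and a median of 0.75. Beside this, 29.5% of all genes tested were higher and 28.4% lower. MT-CO3, a core subunit of complex IV, rose by 1.11 ± 0.12 SE (edgeR adjusted p = 8.4e-05) and MT-CYB, cytochrome b of complex III, by 1.11 ± 0.10 SE (edgeR adjusted p = 4.7e-05) on the log2 scale. MT-ATP8 (1.18) and MT-ND4L (1.005) also passed 2-fold, and MT-ND1, MT-ND2 and MT-ND6 were not called. With scaling by the total count 1 of the 13 was lower, and without siPVT1 replicate 3 there were 3.

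Regulators of respiratory gene transcription were mostly lower, with 12 of 17 lower and 3 higher and a median of -0.48. Over all genes tested 28.4% were lower and 29.5% higher. PPRC1, a coactivator of the PGC-1 family, had 2899, 3081 and 2928 normalized counts in siControl and 965.5, 1172 and 1548.5 in siPVT1 (log2 fold change -1.27 ± 0.15 SE, edgeR adjusted p = 0.000176). PPARGC1B, its relative, was also lower (-1.12 ± 0.19 SE, edgeR adjusted p = 0.00118), as were MYC (-1.01 ± 0.055 SE, edgeR adjusted p = 3.7e-06), NRF1 (-0.40) and TFAM, which packages and transcribes mitochondrial DNA (-0.49). TEFM (-1.19), TFB2M (-1.07) and MTERF3 (-1.06), which act in transcription of mitochondrial DNA, were lower past 2-fold. TFB1M, which methylates mitochondrial ribosomal RNA (0.79 ± 0.093 SE, edgeR adjusted p = 0.000171), and the protease LONP1 (0.67) were higher, and GABPA (0.15) and YY1 (0.11), both known activators of respiratory genes, were not called.

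Promoters were searched for the letters these activators are known to prefer, on both strands of the 300 bases given by RefSeq for 71 of the 88 protein members. The letters GCGCATGCG (NRF1) were in 10 member promoters, 14.1% against 1.92% of all 35116 promoters, CCGGAAG (GABPA and other ETS factors) in 28.2% against 10.3%, and ATGGCGGC (YY1) in 16.9% against 3%. The member promoters had a median GC content of 61% and all promoters 58.7%. Members called higher and members called lower both held these letters. NRF1 letters were in 3 of 26 higher, 2 of 10 lower and 5 of 32 members not called, GABPA letters in 9, 2 and 9, and YY1 letters in 3, 2 and 7. Stretches around the NRF1 letters (capitals, including their reverse complement where the 2 overlap) are shown for the 3 higher and the 2 lower genes that hold them. A link between these letters and the direction of change was not tested. COX6A1 kept its higher call in 5 of 12 alternatives, and the other genes shown kept theirs in each. They are on chr3:120596152-120596211 (plus), chr12:53676091-53676149 (minus), chr12:120437869-120437927 (plus), chr9:122159749-122159808 (minus) and chr11:112086738-112086797 (plus) of GRCh38.p14, in the order given, each 5′ to 3′ on the strand of its gene.
NDUFB4 (higher): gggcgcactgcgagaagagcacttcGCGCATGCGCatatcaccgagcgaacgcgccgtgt
ATP5MC2 (higher): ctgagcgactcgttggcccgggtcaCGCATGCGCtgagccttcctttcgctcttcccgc
COX6A1 (higher): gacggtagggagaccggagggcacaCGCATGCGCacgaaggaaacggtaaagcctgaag
NDUFA8 (lower): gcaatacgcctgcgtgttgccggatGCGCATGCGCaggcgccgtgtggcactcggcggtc
SDHD (lower): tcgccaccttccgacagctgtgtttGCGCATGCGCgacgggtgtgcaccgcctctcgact
NDUFB4 and SDHD, which like NDUFA8 have the full palindrome, were the highest and lowest of the 5, at 0.61 and -0.48. Promoters were not analysed here for ATP5F1B, ATP5F1D, ATP5MC3, ATP5MF, ATP5MGL, COX4I2, COX6C, COX7A1, CYC1, NDUFB5, NDUFB9, NDUFC2, NDUFS5, SDHC, UQCRB and UQCRHL.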

How the data were processed

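Groups of the 6 SK-OV3 libraries (3 siControl, 3 siPVT1) were taken from the sample labels. The authors aligned reads with STAR 2.7.3a to GENCODE transcripts of GRCh38 and quantified them with Salmon 0.14.1 (versions from the submitters' processing notes), and deposited an estimated count for each gene symbol, in whole numbers, which was used as given. A minimum of 5 normalized counts in 3 or more libraries left 19008 genes, which were fitted in edgeR 4.0.16 (R 4.3.3) with TMM scaling, an intercept and the siRNA. Differences were tested with the quasi-likelihood test, Benjamini-Hochberg adjustment ran over all genes tested, and the SE was derived as the size of the log2 fold change over the square root of F. The fit was tested first on simulated data with a single fixed dispersion. It recovered 148 of 200 genes changed by 2-fold, with 8 false calls, so that a change of this size can be missed. The changed genes were drawn from all 19008 at any level of counts, and far more genes were called in the data. The recovery is therefore not a rate for the subunit genes.

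Alternatives were DESeq2 1.42.0, its size factors in edgeR, scaling by total count, no filter, filterByExpr, a replicate block, each library left out, protein symbols alone and shares without division by length. Members and gene lists were chosen with earlier results of these data known. Named genes were NDUFA4L2, COX4I2 and their paralogs, members past both thresholds or not tested, isoform groups, the 3 highest and 3 lowest called genes and the extremes of level in each complex, and in other lists those past both thresholds and the 2 highest and 2 lowest called. Results for some genes are not reported here. Others named were chosen after their values were seen, as were the motifs. Coordinates and MANE Select lengths came from GENCODE 44 on GRCh38. Exact permutation of 3 against 3 libraries cannot go below p = 0.1 and was not used.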

Additional observations from a re-analysis of the deposited data

How the results depend on the processing

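Of 756 refits of 63 named genes, which leave out PVT1 and NDUFA4L2, 727 kept their direction and side of the threshold, 29 kept the direction but no longer passed, and 0 reversed. Many of these genes were named for large or called changes in the same data, which favours a kept result. Among all called members, 15 of 31 higher and 13 of 16 lower kept their call in each alternative. With scaling by the total count, members called higher fell to 15 and lower rose to 26, the member median was -0.040 and NDUFA4L2 passed the threshold at -0.99 (adjusted p = 0.0379), and the shift of all genes by -0.15 is part of that setting. Over the fits that leave out 1 library, members called higher ranged from 20 (without siControl replicate 2) to 31, the member median from 0.035 to 0.15 and NDUFA4L2 from -1.14 to -0.62. Counting protein symbols alone left 0 members past both thresholds. Shares of counts without division by length were, in siPVT1, 0.427% for NDUFA4L2, 0.237% for COX6B2, 17.5% for UQCRHL, 17.9% for ATP5MC1, 39.0% for ATP5MC2, 43.1% for ATP5MC3 and 4.57% for C15orf48. The replicate numbers are shared by the groups, and the deviations of same-numbered libraries correlated at -0.041, 0.038 and 0.0037. With 3 libraries per group, such values cannot decide whether same-numbered libraries share a culture, and the labels do not say. With the replicate number as a block 28 members were higher and 16 lower, and the pairing was not used. No fold change of COX4I2 could be computed under any setting, since all counts were 0. Counts near those of NDUFA4L2 and COX6B2 limit what could be detected.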
